A study of Mus musculus with 4 samples.

Results

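The striated muscle and sarcomere genes comprised 36 genes, taken by gene symbol from a count table of 54532 mouse genes and followed across all 4 of its libraries. They covered the myogenic transcription factors, the thick and thin filaments, the titin, M-band and Z-disc proteins, dystrophin with its sarcoglycan partners, and the proteins of calcium release and creatine kinase. No filter on expression was used to choose them. All 36 symbols were found in the table.

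The study asked what depletion of DNMT1, the maintenance DNA methyltransferase, does to the transcriptome of mesenchymal stem cells at rest and at the onset of osteoblast (OB) differentiation. Poly(A) RNA was sequenced from C3H10T1/2 cells, a mesenchymal stem cell line derived from C3H mouse embryos. The control group received a control siRNA for 48 h and the siDNMT1 group an siRNA against DNMT1 for 48 h, and both were then left untreated. The OB and siDNMT1_OB groups received the same control or DNMT1 siRNA and were then induced for 3 days with dexamethasone, 10 mM β-glycerophosphate and 50 µM ascorbic acid. All groups were transfected and no untransfected cells were included. No culture time beyond the 48 h was given for the control and siDNMT1 groups. Induction, days in culture and time since transfection therefore cannot be told apart where induced and untreated libraries are compared. The sources used here do not state whether the DNMT1 siRNA was a single duplex or a pool. The siDNMT1 and control libraries are called the untreated pair below, and the siDNMT1_OB and OB libraries the OB pair. Each group held 1 library, so the spread between replicates of a group is not known and no p-value is given for a single pair of libraries. A fit over all 4 libraries that assumes additive effects is described with the other alternatives.

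In striated muscle, myosin thick filaments pull on actin thin filaments inside the sarcomere, and calcium starts contraction by binding the troponin complex on the thin filament. Thin filaments are anchored at the Z-disc and thick filaments at the M-band, titin spans from one to the other, and dystrophin with the sarcoglycans links the contractile apparatus to the membrane and the matrix outside. The program is switched on by the myogenic transcription factors MYOD1, MYF5, MYF6 and myogenin. C3H10T1/2 cells are known for their ability to enter this program when MYOD1 is supplied or when DNA methyltransferases are inhibited with azacytidine.

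The total gene count was 27367792 for control, 25608719 for siDNMT1, 22296046 for OB and 26912489 for siDNMT1_OB. A level is given as CPM, counts scaled by TMM to a common library size, and a level compared between genes as RPKM, which also divides by gene length. To check the labels, Dnmt1 itself was read before any member. It had 7195 counts for control, 3375 for siDNMT1, 1931 for OB and 2492 for the library labelled siDNMT1_OB. Dnmt1 was therefore lower with the DNMT1 siRNA in untreated cells, with a log2 fold change of -1.01, but not in induced cells, where it was 0.12. For this reason the fourth library is called by its label, and "with DNMT1 siRNA" names the transfection given by the labels and not a measured loss of Dnmt1. Of 8 markers each, all 8 of the mesenchymal and all 8 of the smooth muscle list had counts, whereas 5 of 8 striated muscle markers were at or under 3 counts in every library and Myod1, Myh3 and Actn2 had none. Of 8 osteoblast markers all had a count, but Bglap and Alpl stayed at or under 3 counts in every library. Sp7, Alpl, Bglap and Ibsp averaged below 1 CPM and were not tested. In OB against control none of the 4 tested osteoblast markers was called higher, against 10.6% of all tested genes. Spp1 (log2 fold change -1.55) and Dmp1 (-2.81) were called lower, against 7.1% of all tested genes. Spp1 was also called lower in the untreated pair (-1.41), and Dmp1 higher in the OB pair (1.76). The shares over all tested genes were 1.31% and 2.34% there. Of the cardiac markers, 5 of 8 were at or under 3 counts in every library. The other cardiac markers had more, and 2 of the 8 were tested, against 0 of the 8 striated muscle markers. The cardiac list summed to 23.3 CPM for control, 26.7 for siDNMT1, 20.1 for OB and 21.9 for the library labelled siDNMT1_OB.

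Promoter windows from RefSeq (GRCm38.p6), reaching from 250 bases before to 50 bases after a transcription start, were found for 28 of the 36 genes and numbered 33. Myod1, Myf6, Tnnt3, Tnni2, Neb, Myom2, Actn3 and Cryab had none in the table. A CArG box, the binding motif of serum response factor, occurred in 6 of the 33 windows (18.2%), against 1.63% of all 32851 windows of the same length. The genes with such a box were Acta1, Actc1, Dmd, Ldb3 and Myom1. Ldb3 has overlapping windows (chr14:34588558-34588857 and chr14:34588632-34588931) that hold the same box, so this site is counted in each of them. A window of each of the 4 that had at least 10 counts in a library is printed 5′ to 3′ on the strand of the gene, because Myom1 and Dmd were called higher in both siRNA comparisons, Acta1 is the skeletal muscle actin and Ldb3 is a Z-disc gene with a box but nearly level counts. The capitals mark the CArG box. The windows lie at chr17:71019307-71019606 on the plus strand (Myom1), chrX:82948620-82948919 on the plus strand (Dmd), chr8:123894726-123895025 on the minus strand (Acta1) and chr14:34588632-34588931 on the minus strand (Ldb3).
Myom1: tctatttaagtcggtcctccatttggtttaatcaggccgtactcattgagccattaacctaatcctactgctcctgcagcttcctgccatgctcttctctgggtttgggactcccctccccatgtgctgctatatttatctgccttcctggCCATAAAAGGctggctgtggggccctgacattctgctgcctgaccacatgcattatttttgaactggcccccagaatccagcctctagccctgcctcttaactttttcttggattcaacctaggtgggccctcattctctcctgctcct
Dmd: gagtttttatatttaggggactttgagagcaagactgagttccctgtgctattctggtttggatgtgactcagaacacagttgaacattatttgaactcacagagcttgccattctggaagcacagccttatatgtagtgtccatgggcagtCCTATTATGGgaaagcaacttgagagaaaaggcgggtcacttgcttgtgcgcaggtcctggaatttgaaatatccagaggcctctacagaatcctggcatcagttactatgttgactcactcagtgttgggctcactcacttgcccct
Acta1: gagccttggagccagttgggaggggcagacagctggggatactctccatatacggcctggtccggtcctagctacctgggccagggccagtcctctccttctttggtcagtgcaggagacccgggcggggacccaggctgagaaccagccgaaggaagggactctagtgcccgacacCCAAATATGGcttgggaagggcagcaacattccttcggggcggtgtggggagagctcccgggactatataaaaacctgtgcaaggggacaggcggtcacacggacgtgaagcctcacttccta
Ldb3: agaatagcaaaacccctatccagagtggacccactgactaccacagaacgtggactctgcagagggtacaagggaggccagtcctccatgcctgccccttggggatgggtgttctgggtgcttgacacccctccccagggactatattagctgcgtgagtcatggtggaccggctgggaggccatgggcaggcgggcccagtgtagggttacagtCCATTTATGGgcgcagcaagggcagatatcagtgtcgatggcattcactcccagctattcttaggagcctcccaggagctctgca

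Counted from the transcription start, the box began at position -99 in Myom1, -98 in Dmd, -73 in Acta1 and -35 in Ldb3. Counted from the start of the other Ldb3 window, the same box began at -109. Myom1 had 2 CpG dinucleotides in its window, this Dmd window 2, Ldb3 6 and Acta1 12. Another Dmd window, at a start far downstream in the same gene (chrX:85048045-85048344), had 14 CpG and no CArG box, and the gene count cannot be divided between these starts. Over the 33 windows the median was 6 CpG (range 1 to 25), against 7 over all windows. A MEF2 box was found in 12.1% of the members' windows and 3.19% of all windows. The E-box letters CANNTG were found in 75.8% and 72.3%, the subset CAGCTG in 27.3% and 16.3%, the MCAT letters CATTCC in 27.3% and 14.7%, and TATAAA in 30.3% and 13.6%. Both strands were searched, and CAGCTG sites are also counted under CANNTG. These matches describe the letters of the windows only and were not tested as binding sites.

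The striated muscle genes of these cells ranged from no count at all to over 100 CPM. Of the 36 genes, 10 had no count in any library, 4 reached at most 3 counts, 3 reached 4 to 9 counts, and 19 had at least 10 counts in 1 or more libraries. With 13 genes passing the expression filter (a mean of at least 1 CPM over the 4 libraries), 23 stayed below it. The 36 genes together held 3816 counts for control, 4119 for siDNMT1, 6697 for OB and 9267 for the library labelled siDNMT1_OB. This equalled 141, 161, 296 and 346 CPM. Cryab and Sgcb made up 55.3%, 52.5%, 64.4% and 67.1% of these counts, and without them the summed level was 62.8, 76.4, 105 and 114 CPM. The sum was thus highest in the induced libraries with or without these genes.

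**Figure D1:**
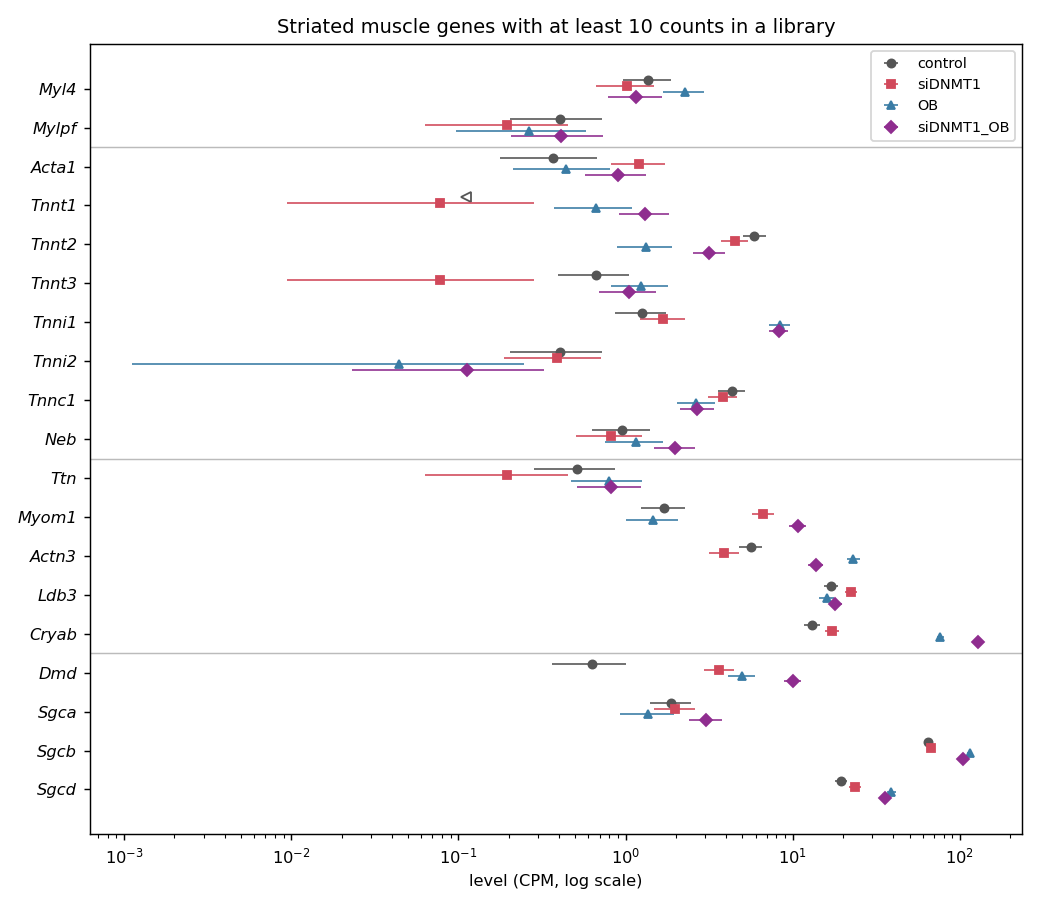
Level in CPM on a log scale of the 19 striated muscle genes with at least 10 counts in a library, with 1 point per library, a line for its exact 95% counting interval and an open triangle at 3 counts for a library with no count. Grey lines separate thick filament, thin filament, titin, M-band and Z-disc, and dystrophin and sarcoglycan genes. Cryab, Dmd, Myom1, Tnni1 and Actn3 spread widely between the libraries, whereas Ldb3 lies close together.

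Per length, Cryab had the highest mean level of all members (39.6 RPKM), followed by Sgcb (21.7 RPKM), Actn3 (4.01), Sgcd (3.57), Tnnc1 (3.24) and Ldb3 (3.00). Tnni1 (1.36 RPKM) and Sgca (1.19 RPKM) came next, and every other member had a mean below 0.5 RPKM. The longest genes came far down this order, with Neb at 0.0462 and Ttn at 0.00498 RPKM. Since these are means over 1 library of each group, neighbours such as Sgcd and Tnnc1 changed places between libraries. In control, Tnnc1 had 4.14 RPKM and Sgcd 2.36, whereas in OB Tnnc1 had 2.55 and Sgcd 4.72.

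No myogenic transcription factor was detected above the floor of 3 counts. Myod1, Myf5 and Myf6 had 0 counts in all 4 libraries, and a count of 0 allows up to 0.111 CPM for control, 0.117 for siDNMT1, 0.133 for OB and 0.112 for the library labelled siDNMT1_OB. Myog, which encodes myogenin, had 2 counts in control and none elsewhere. At this depth no difference between groups could be seen for these genes.

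The thick filament genes were nearly as sparse. The skeletal myosin heavy chain genes Myh1, Myh3 and Myh8 lie together on chromosome 11 from 67078300 to 67308634, a span of 230 kb, and had 0 counts in any library. Myl1, the fast skeletal essential light chain gene, and Mybpc1, the slow myosin-binding protein C gene, also had none. Myh7, the slow and cardiac heavy chain gene, had 0 counts for control, 7 for siDNMT1, 0 for OB and 8 for the library labelled siDNMT1_OB. It was singled out after its values were seen. All of its reads lay in the libraries labelled siDNMT1 and siDNMT1_OB. Against a floor of 3 counts in the library at 0, they were 2.47-fold above control in untreated and 2.25-fold above OB in induced cells. The exact lower 95% counting limits were 0.61 and 0.53 on the log2 scale.

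Myl4, which encodes the essential light chain of atrial and embryonic muscle, was the thick filament gene with the most reads. It had 37 counts for control, 26 for siDNMT1, 51 for OB and 31 for the library labelled siDNMT1_OB. The log2 fold change was -0.40 (95% counting interval -1.21 to 0.34) for the untreated pair and -0.92 (-1.65 to -0.29) for the OB pair, so it was lower in the siDNMT1 and siDNMT1_OB libraries but short of the threshold used here. Mylpf, the fast skeletal regulatory light chain gene, had 11, 5, 6 and 11 counts in the same order. Its counting intervals spanned 0 in all 4 comparisons.

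Between siRNAs, Myom1 and Dmd had the highest log2 fold changes of the tested members in untreated cells, and Myom1, Tnnt2, Sgca and Dmd in induced cells. To read all genes alike, a gene was called higher or lower when it differed by 1 or more on the log2 scale and an exact read test of the 2 libraries, adjusted over 13233 tested genes, was under 0.05. That test compares libraries, not conditions. In untreated cells, 2 of the 13 tested members were called higher in siDNMT1 than in control and none lower, while 1.84% of all tested genes were called higher and 1.31% lower. In the OB pair, 4 of 13 were called higher and none lower, with 2.34% and 1.35% over all tested genes. The median log2 fold change of the 13 was 0.08 for the untreated pair and 0.17 for the OB pair, against 0.00 and 0.01 over all tested genes. With no expression filter the untreated pair median over the members with a count was -0.11. The calls came from Myom1 and Dmd in both pairs and from Tnnt2 and Sgca in the OB pair. With a mean CPM of at least 5 Myom1 alone was called in each pair, Dmd, Tnnt2 and Sgca then being untested. Myom1 passed that filter only through the libraries labelled siDNMT1 and siDNMT1_OB (6.67 and 10.7 CPM, against 1.70 in control and 1.46 in OB). Its calls there therefore depend on the filter, and the share of all genes called at it is not given here. An additive edgeR quasi-likelihood fit over all 4 libraries called 0 members and 0 of all tested genes for the siRNA. In that fit 4 members had an unadjusted p under 0.05, and the lowest adjusted p of a member was 0.157. Since the members that passed the filter are those with reads, these counts describe them and not all 36 genes.

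**Figure D2:**
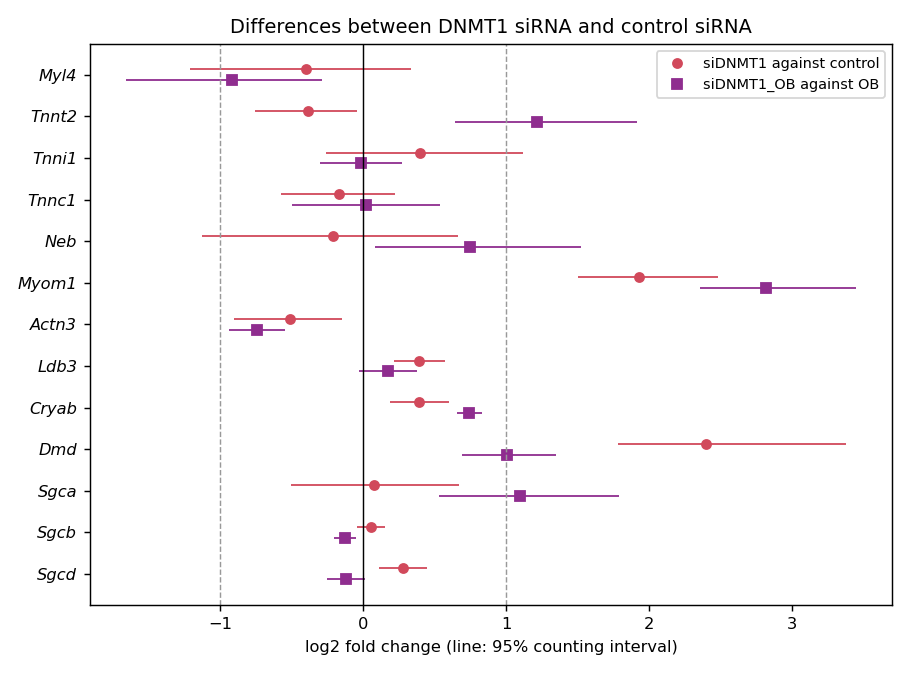
Log2 fold change between DNMT1 and control siRNA for the 13 striated muscle genes that passed the expression filter, in untreated cells (circles) and induced cells (squares), with exact 95% counting intervals as lines and the size threshold as dashed lines. Myom1 and Dmd lie to the right in both pairs, and Tnnt2 lies on opposite sides of 0.

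Myom1 differed most between the siRNAs in induced cells. It encodes myomesin, which crosslinks thick filaments at the M-band, and lies on the plus strand of chromosome 17 from 71002633 to 71126856 (ENSMUSG00000024049, GRCm38). It had 46 counts for control, 171 for siDNMT1, 33 for OB and 287 for the library labelled siDNMT1_OB. The libraries labelled siDNMT1 and siDNMT1_OB were therefore both above control and OB. The log2 fold change was 1.93 (95% counting interval 1.50 to 2.48) for the untreated pair and 2.81 (2.36 to 3.44) for the OB pair, or 3.94-fold and 7.35-fold. Between induced and untreated libraries it differed less, with log2 fold changes of -0.21 (-0.91 to 0.46) with control siRNA and 0.68 (0.41 to 0.97) with DNMT1 siRNA.

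The annotated 5′ end of Myom1 shares 207 exonic bases (chr17:71002672-71002878) with Myl12a on the opposite strand, a broadly expressed regulatory light chain gene, and whether strand was used in counting was not given in the sources used here. Myl12a had 4785, 4837, 3081 and 4769 counts, with log2 fold changes of 0.10 for the untreated pair and 0.39 for the OB pair. Its differences were thus smaller than those of Myom1. The shared stretch ends 16679 bases before the start of Myom1 in RefSeq. Its part in the Myom1 counts was not tested. Myom2, the gene of the related M-band protein, had 3, 0, 5 and 6 counts.

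Dmd encodes dystrophin and spans chromosome X from 82948870 to 85206141 on the plus strand (ENSMUSG00000045103). It had 17 counts for control, 93 for siDNMT1, 112 for OB and 268 for the library labelled siDNMT1_OB. Control was the lowest library and the library labelled siDNMT1_OB the highest, with siDNMT1 and OB close to each other. The log2 fold change was 2.39 (95% counting interval 1.78 to 3.37) between siRNAs in untreated cells and 1.00 (0.69 to 1.35) in induced cells. It was 2.83 (2.24 to 3.81) for OB against control and 1.44 (1.12 to 1.82) for the library labelled siDNMT1_OB against siDNMT1. The OB pair value stood at the threshold, and total count scaling gave 0.98.

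The siRNA difference of Dmd was smaller in induced than in untreated cells by 1.39 on the log2 scale (-1.39, 95% counting interval -2.20 to -0.58), and that of Myom1 was larger (0.88, 0.18 to 1.59). These intervals cover counting error only, and with 1 library per group neither difference was tested. Per length Dmd stayed low, at 0.0263 RPKM in control and 0.421 RPKM in the library labelled siDNMT1_OB.

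The sarcoglycans, membrane partners of dystrophin, behaved in different ways. Sgca, whose expression is largely limited to striated muscle, had 51 counts for control, 51 for siDNMT1, 31 for OB and 81 for the library labelled siDNMT1_OB. The 2 untreated libraries were level, at a log2 fold change of 0.08 (-0.51 to 0.67), whereas the OB pair differed by 1.10 (0.53 to 1.79). Sgcb, which is expressed more widely, had 1758, 1723, 2588 and 2802 counts and was within 0.13 of 0 on the log2 scale in both siRNA comparisons. Sgcd, also expressed in smooth muscle, had 528, 605, 881 and 959 counts, with log2 fold changes of 0.28 and -0.12. Of these 3 genes Sgca alone was called between siRNAs, in the OB pair. Its difference between the pairs was 1.02 on the log2 scale (0.20 to 1.84) and was not tested across conditions.

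Acta1, the skeletal muscle α-actin gene, had 10 counts for control, 31 for siDNMT1, 10 for OB and 24 for the library labelled siDNMT1_OB and stayed below the filter. It was 3.28-fold higher (95% counting interval 1.57 to 7.50) with the DNMT1 siRNA in untreated cells and 2.03-fold higher (0.935 to 4.75) in induced cells. Acta2, the smooth muscle α-actin gene and a close relative of Acta1, had 26761, 87394, 25413 and 98223 counts, with log2 fold changes of 1.79 and 1.71. Acta1 counts equalled 0.0374%, 0.0355%, 0.0393% and 0.0244% of the Acta2 counts, and the exact 95% intervals of these shares overlapped. Reads of these related genes may be exchanged, and the treatment of multi-mapped reads was not given, so the Acta1 values are uncertain. The part of Acta2 reads in them was not tested. Actc1, the cardiac actin gene, had 3 counts in OB and none elsewhere.

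**Figure D3:**
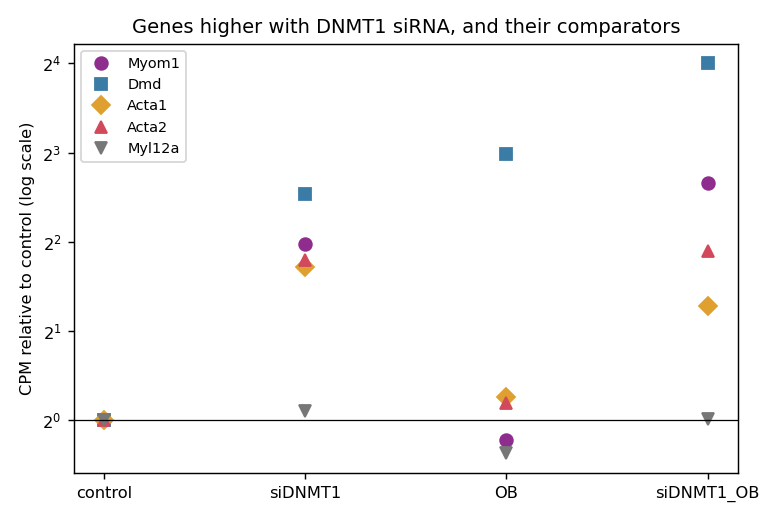
CPM relative to the control library (log scale) for Myom1, Dmd and Acta1, with the smooth muscle actin gene Acta2 and the overlapping neighbour Myl12a as comparators, 1 point per library. Myom1 is above control only in the libraries labelled siDNMT1 and siDNMT1_OB (3.94 and 6.32 times), Dmd in all 3 other libraries, Acta1 lies near or below Acta2, and Myl12a stays near 1.

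Summed over 8 smooth muscle markers, the level was 1045 CPM for control, 3503 for siDNMT1, 1341 for OB and 3966 for the library labelled siDNMT1_OB. The sum was therefore 3.35 times as high with the DNMT1 siRNA in untreated cells and 2.96 times in induced cells, and 1.56 and 1.36 times without Acta2. With induction the sum was 1.28 times as high with control siRNA and 1.13 times with DNMT1 siRNA, but 3.70 and 3.22 times without Acta2. The 8 striated muscle markers summed to 1.66, 1.48, 2.48 and 2.77 CPM. The part of smooth muscle gene expression in the differences of Myom1, Dmd and Sgca, and in those with induction, was not tested. In these bulk samples, more cells of a type and more RNA per cell cannot be told apart.

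OB induction went with higher Cryab, Tnni1, Actn3 and Dmd levels with either siRNA, by 1.44 to 2.89 on the log2 scale, and with lower Tnnt2 with control siRNA. The summed smooth muscle markers without Acta2 were higher in the same comparisons, by 3.70 and 3.22 times. In OB against control, 4 of the 13 tested members were called higher (Dmd, Tnni1, Cryab and Actn3) and 1 lower (Tnnt2), with 10.6% of all tested genes higher and 7.1% lower. For the library labelled siDNMT1_OB against siDNMT1, 5 members were called higher (Cryab, Tnni1, Actn3, Dmd and Neb) and none lower, with 6.82% and 2.7% over all tested genes. Neb passed the expression filter only through the library labelled siDNMT1_OB, so its call there depends on the filter. The median log2 fold changes of the 13 were 0.69 and 0.64, against 0.01 and 0.00 over all tested genes. These comparisons use other libraries than each other but share a library with each siRNA comparison.

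**Figure D4:**
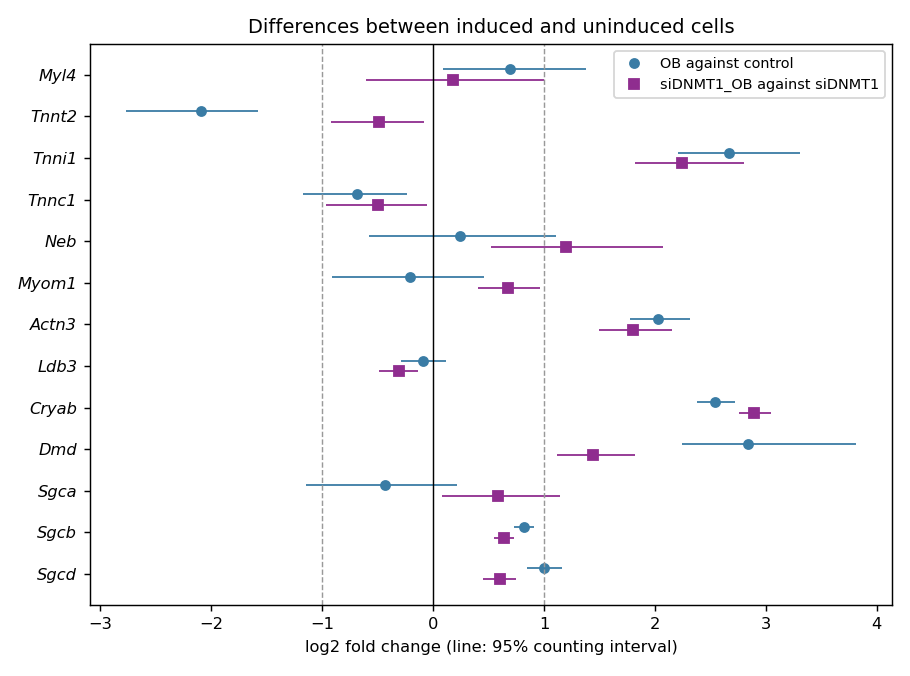
Log2 fold change between induced and untreated cells for the 13 striated muscle genes that passed the expression filter, with control siRNA (circles) and DNMT1 siRNA (squares), with exact 95% counting intervals as lines and the size threshold as dashed lines. Cryab, Tnni1, Actn3 and Dmd lie to the right of the threshold with both siRNAs, and Tnnt2 lies far to the left with control siRNA.

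Cryab encodes αB-crystallin, a small heat shock protein that protects Z-disc and desmin filaments in muscle and is also expressed in many other cells. It had 354 counts for control, 439 for siDNMT1, 1726 for OB and 3419 for the library labelled siDNMT1_OB. Both induced libraries lay far above both untreated libraries, with log2 fold changes of 2.54 (95% counting interval 2.38 to 2.72) with control siRNA and 2.89 (2.75 to 3.05) with DNMT1 siRNA. Between siRNAs it was 0.39 (0.19 to 0.60) in untreated and 0.74 (0.66 to 0.83) in induced cells, below the threshold in both. Cryab shares 252 exonic bases with Hspb2 on the opposite strand, which had 1, 4, 14 and 8 counts.

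Actn3, the α-actinin gene of fast muscle Z-discs, had 152 counts for control, 100 for siDNMT1, 522 for OB and 369 for the library labelled siDNMT1_OB. The induced libraries were again the higher ones, by 2.03 (1.78 to 2.31) and 1.80 (1.50 to 2.15) on the log2 scale. The libraries labelled siDNMT1 and siDNMT1_OB were each the lower one of their pair, by -0.51 (-0.90 to -0.15) in untreated and -0.74 (-0.94 to -0.55) in induced cells, so Actn3 ran opposite to Myom1 in both siRNA comparisons. Neither value passed the threshold. Actn2, the α-actinin gene of all striated muscle fibres, had no count in any library.

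Ldb3, which encodes the Z-disc protein ZASP, was the most even of the Z-disc genes. It had 461 counts for control, 572 for siDNMT1, 361 for OB and 482 for the library labelled siDNMT1_OB. Its log2 fold changes between siRNAs were 0.39 (0.21 to 0.57) and 0.17 (-0.03 to 0.38), and those of induction were -0.09 (-0.29 to 0.11) and -0.31 (-0.49 to -0.13). Ttn, the titin gene, had 14, 5, 18 and 22 counts and stayed below the filter. It was lowest in siDNMT1 and 4.21-fold higher (95% counting interval 1.56 to 14.2) in the library labelled siDNMT1_OB than there.

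Neb, the gene of nebulin, which sets thin filament length, had 26 counts for control, 21 for siDNMT1, 26 for OB and 53 for the library labelled siDNMT1_OB. The last library stood above the other 3, which were close to each other. Its log2 fold change was 1.20 (0.52 to 2.08) for the library labelled siDNMT1_OB against siDNMT1 and 0.75 (0.08 to 1.52) for the OB pair, where it was not called. Sgcb and Sgcd were higher in the induced libraries by log2 values of 0.82 and 1.00 with control siRNA and of 0.64 and 0.60 with DNMT1 siRNA, each below the threshold. Sgcd in OB against control stood at 0.998, and total count scaling gave 1.03.

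The troponins, which hold the thin filament off until calcium rises, did not move as a group. Troponin complexes have a T subunit that binds tropomyosin, an I subunit that inhibits and a C subunit that binds calcium. Tnni1, the slow skeletal I subunit gene, had 34 counts for control, 43 for siDNMT1, 189 for OB and 221 for the library labelled siDNMT1_OB. It was higher with induction by 2.66 (2.20 to 3.31) and 2.25 (1.82 to 2.81) on the log2 scale, and level between siRNAs in induced cells (-0.02, -0.30 to 0.27).

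Tnnt2, the T subunit gene of heart and embryonic muscle, went the other way with control siRNA. It had 160 counts for control, 115 for siDNMT1, 30 for OB and 85 for the library labelled siDNMT1_OB. OB was the lowest library, at a log2 fold change against control of -2.09 (95% counting interval -2.77 to -1.58). The library labelled siDNMT1_OB differed from siDNMT1 by -0.49 (-0.92 to -0.08). Between siRNAs Tnnt2 was at -0.39 (-0.75 to -0.04) in untreated cells and 1.21 (0.64 to 1.91) in induced cells, a difference of 1.60 (0.91 to 2.29) that was not tested across conditions. Tnnc1, the slow and cardiac C subunit gene, had 117, 98, 60 and 72 counts, lower with induction by -0.69 and -0.50 on the log2 scale and within 0.17 of 0 between siRNAs.

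Tnni1 and Tnnt2 lie in the same orientation on chromosome 1, from 135779434 to 135810989 and from 135836354 to 135852260, with a gap of 25.4 kb that holds Lad1. In OB against control one neighbour was called higher and the other lower. Tnni2, the fast I subunit gene, and Tnnt3, the fast T subunit gene, lie on chromosome 7 with a gap of 54.4 kb that holds Lsp1. Tnni2 had 11, 10, 1 and 3 counts and Tnnt3 18, 2, 28 and 28 counts. Tnni2 was 9.17-fold lower (1.33 to 395) in OB than in control, whereas Tnnt3 had its highest counts in the induced libraries and its lowest in siDNMT1, at 8.50-fold below control (2.04 to 75.5) and 13.4-fold below the library labelled siDNMT1_OB (3.38 to 116).

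Tnnt1, the slow T subunit gene, lies 1.92 kb from Tnni3, the cardiac I subunit gene, also on chromosome 7. It had 0 counts for control, 2 for siDNMT1, 15 for OB and 35 for the library labelled siDNMT1_OB. Nearly all of its reads thus lay in the induced libraries. Against a floor of 3 counts in control, OB was 6.0-fold higher, with an exact lower 95% counting limit of 2.1 on the log2 scale. The library labelled siDNMT1_OB was 16.8-fold above siDNMT1 (4.30 to 144). Tnni3, which is not among the 36 genes, had 69, 87, 88 and 84 counts and shares 86 exonic bases with Dnaaf3 on the same strand. The neighbours in each of these 3 pairs were not alike in counts across the libraries. Tnnc2, the fast C subunit gene, had 4 counts in control and none elsewhere, and 592 of its exonic bases are shared with Ube2c on the opposite strand. Ube2c had 4025 counts for control, 3772 for siDNMT1, 610 for OB and 1608 for the library labelled siDNMT1_OB. Its part in the Tnnc2 counts was not tested.

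**Figure D5:**
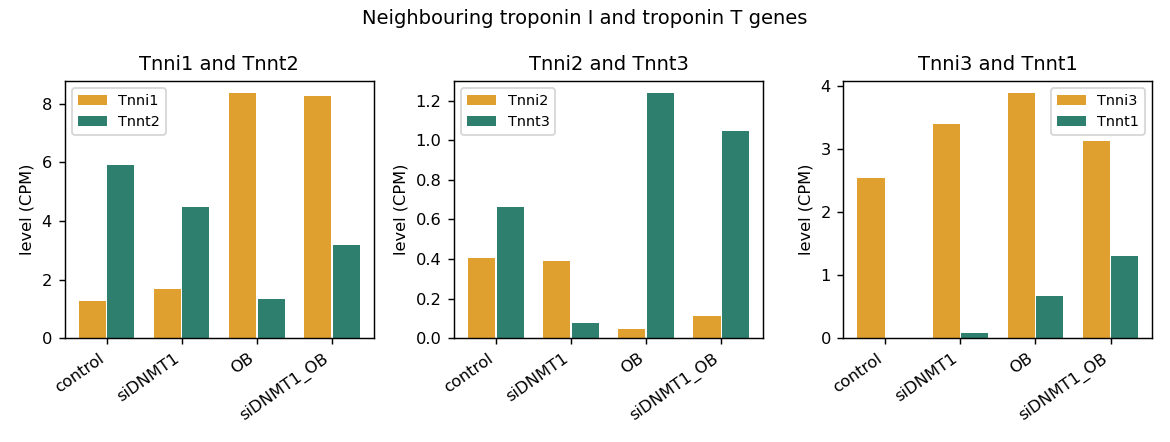
Level in CPM of 3 neighbouring pairs of troponin I and troponin T genes, 1 bar per gene and library, each panel on its own scale from 0. Tnni1 is high where Tnnt2 is low in OB, Tnni2 and Tnnt3 differ in the induced libraries, and Tnnt1 has no count in control, where Tnni3 has 2.54 CPM.

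The genes of excitation and energy supply were at the floor. Ryr1, the calcium release channel gene of skeletal muscle, had 1, 0, 1 and 1 counts. Cacna1s, its voltage sensor, had none, and Ckm, muscle creatine kinase, had 1 count in control.

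Genes of the same machinery outside the 36 were read from lists with the same call. Of 15 tested further genes of the dystrophin complex, none was called in the untreated or OB pair, where 1.84% and 2.34% of all tested genes were called higher, so that no call is near the background. With induction, 4 (26.7%, against 10.6% of all tested genes) were called higher with control siRNA, led by Lama2 (log2 fold change 2.01), a laminin chain of the muscle basement membrane, and Dtna (1.37), a dystrobrevin. With DNMT1 siRNA, 3 (20%, against 6.82%) were called higher, led by Dtna (1.31) and Lama2 (1.09). Their medians were 0.24 and 0.08 between siRNAs and 0.33 and 0.25 with induction. Utrn, the gene of the dystrophin relative utrophin, had 4856, 6332, 4626 and 6827 counts and was not called in any comparison. It was named after its values were seen.

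Of 49 further sarcomere and Z-disc genes found in the table, 15 passed the filter and none of them was called between siRNAs, which is near the 1.84% and 2.34% called higher over all tested genes. With induction 2 were called higher with control siRNA (13.3%, against 10.6% of all tested genes) and 1 with DNMT1 siRNA (6.67%, against 6.82%), shares near the background. They were Nebl, a short relative of nebulin, at 2.11 and 1.14 on the log2 scale, and Fbxo32, a ubiquitin ligase of muscle atrophy, at 1.34 with control siRNA only, a difference between siRNAs that was not tested. Of 11 tested genes of excitation-contraction coupling and muscle metabolism, none was called in the untreated pair, where the share over all tested genes was 1.84% higher. In the OB pair 2 were called (18.2%, against 2.34%), in OB against control 0 (against 10.6%) and in the library labelled siDNMT1_OB against siDNMT1 2 (18.2%, against 6.82%). The comparisons with calls share the library labelled siDNMT1_OB. Eno3 (1.11), the muscle enolase gene, and Chrnb1 (1.09), an acetylcholine receptor subunit gene, were called higher in the OB pair. Eno3 (1.19) and Pgam2 (1.17), the muscle phosphoglycerate mutase gene, were called higher in the library labelled siDNMT1_OB against siDNMT1.

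Of 20 tested regulators of myogenesis, 5 (25.0%, against 1.84% of all tested genes) were called higher in the untreated pair, led by Hdac9 (1.80), a MEF2-binding deacetylase, H19 (1.74), an imprinted noncoding RNA, and Mef2c (1.57), a muscle transcription factor. In the OB pair 3 (15.0%, against 2.34%) were called higher, namely Hdac9 (2.43), H19 (2.42) and Mef2c (1.04). Hdac9 had 54, 183, 25 and 169 counts and Mef2c 334, 938, 383 and 935, so that for both genes the libraries labelled siDNMT1 and siDNMT1_OB were the higher ones of their pairs. H19 rested on 2 counts in control and 11 in siDNMT1, and its 95% counting interval in the untreated pair ran from 0.35 to 5.76 on the log2 scale. H19 passed the expression filter only through the library labelled siDNMT1_OB (4.37 CPM, against 0.0737 to 0.752 CPM in the others). All of its calls therefore depend on the filter, also those in the untreated pair and in OB against control. With induction, 4 (20%, against 10.6%) were called higher with control siRNA, led by Fst (2.58), a myostatin antagonist, H19 (2.45) and Tead4 (1.19), a factor that binds MCAT boxes, and 3 (15.0%, against 6.82%) with DNMT1 siRNA, namely H19 (3.13), Fst (1.69) and Tead4 (1.32). None of the tested genes on these 4 lists was called lower in any comparison. Among all tested genes, 1.31% were called lower in siDNMT1 than in control, and 1.35% in siDNMT1_OB than in OB. This share was 7.1% for OB against control and 2.7% for siDNMT1_OB against siDNMT1. Between siRNAs, the absence of lower calls is therefore near the background. Whether lower calls were fewer than the background with induction was not tested. Hdac9, Mef2c and H19 were known from earlier results of these libraries and are not independent evidence.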

How the data were processed

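Poly(A) RNA of 4 C3H10T1/2 samples was measured, 1 library per group. The authors deposited raw gene counts as whole numbers. Per the submitters' processing notes, reads were trimmed with Trimmomatic, aligned to mm10 with HISAT2 and counted with featureCounts. Versions, the use of strand and the treatment of multi-mapped reads were not given in the sources used here. The exon length per gene in the deposited table (per the file headers, another column) served for RPKM. Of the 36 genes, 35 had the position of GENCODE M21 (GRCm38).

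Scaling of the deposited counts was by TMM with edgeR 4.0.16 in R 4.3.3 (factors 0.991 to 1.014). A gene was tested when its CPM averaged 1 or more (13233 of 54532). Log2 fold changes used a prior count of 2. Calls needed a size of at least 1 and a Benjamini-Hochberg adjusted exact two-sided binomial read test under 0.05 (scipy 1.17.1), and the steps were tested on simulated data. Intervals are exact 95% intervals (Clopper-Pearson for ratios and shares, Poisson for levels), and those of a difference of differences are approximate. A fold against 0 counts was computed against a floor of 3 counts per library, and none is given where both libraries were at or under 3. Without molecular identifiers, these intervals and floors describe counting error alone and leave out variation between dishes.

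Members with at least 10 counts in a library were named with all 4 counts, and from each further list at most 3 called genes per comparison, furthest from 0 first, apart from 1 gene that is not reported here. The members, lists and rules were chosen with earlier results of these data known. Alternatives were total count, upper quartile and DESeq2 (1.42.0) scaling, TMM over all genes (chosen after seeing the data), no expression filter, a mean CPM of at least 5, a prior count of 0.5, calls by fold alone and an additive edgeR quasi-likelihood fit.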

Additional observations from a re-analysis of the deposited data

Results flagged for a closer look

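The siRNA difference of Tnnt2, the cardiac troponin T gene, lay on opposite sides of 0 in the 2 states. Its log2 fold change was -0.39 in untreated cells and 1.21 in induced cells, which is a change of 1.60. With 1 library per group this difference was not tested across conditions. The value rests mostly on the OB library, with 30 counts, against 85 to 160 counts in the others.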

How the results depend on the processing

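With no expression filter, Acta1 joined Myom1 and Dmd as higher in the untreated pair (3 genes) and Tnnt3 was called lower there (1), and the median over the members with a count became -0.11 in place of 0.08. Among the other comparisons, Tnnt2 and Tnni2 were then called lower in OB against control (2). In the library labelled siDNMT1_OB against siDNMT1, 8 genes were called higher (Tnnt1, Tnnt3 and Ttn joining the 5). The share of all genes called without the filter is not given here, so these counts have no background beside them. With a mean CPM of at least 5, fewer genes were tested. The calls higher fell to 1 (Myom1) in the untreated pair and 1 (Myom1) in the OB pair. They fell to 2 (Actn3 and Cryab) in OB against control, with 0 lower there. In the library labelled siDNMT1_OB against siDNMT1 they fell to 2 (Actn3 and Cryab). Dmd (mean 4.81 CPM), Tnni1 (4.89), Tnnt2 (3.72), Sgca (2.07) and Neb (1.23) were then not tested. Myom1 (mean 5.14 CPM) passed only through the libraries labelled siDNMT1 and siDNMT1_OB, so its calls depend on this filter. The share of all genes called at this filter is not given here either. An additive edgeR quasi-likelihood fit of siRNA and induction over all 4 libraries leaves 1 residual degree of freedom and assumes the same siRNA effect in both states. It called 0 members for the siRNA at an adjusted p under 0.05 (4 at an unadjusted p under 0.05, and 0 and 1148 of all tested genes), so that the counts higher in both siRNA comparisons became 0, the lowest adjusted p of a member being 0.157. For induction it called 6 members, all higher, and 0 lower, with 2786 of all 13233 tested genes called in either direction. Its shared siRNA value for Tnnt2 was 0.32, opposite in sign to the untreated pair. Under total count and upper quartile scaling, Dmd in the OB pair was 0.98 and 0.99, below the threshold, and Sgcd in OB against control was 1.03 and 1.05, above it. No scaling moved the median of all tested genes by over 0.0488. Counts of members called and summary values stayed within their limits in 90 other comparisons with an alternative. For single genes, 655 comparisons kept the call or, for untested genes and differences between pairs, stayed within the counting interval. Of the others, 10 fell below the threshold, 7 rose past it and 1 changed sign. The 655 include genes that were not called, and alternatives of filter or call rule leave the fold change as it was. Part of the 655 was therefore fixed in advance. No paired analysis was possible because each group held 1 library, so groups shared fewer than 2 replicate numbers, and for the same reason no library could be left out. Depth limits the 17 genes under 10 counts in every library, for which no difference was detectable at this depth other than in Myh7 and Myom2, whose exact intervals against 0 counts left out a ratio of 1.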
